A study of Mus musculus with 8 samples.

Results

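Disallowed genes are genes that other tissues express and that mature beta cells of the pancreatic islet keep at a low level. The 10 genes described here, Ldha, Slc16a1, Hk1, Acot7, Oat, Aldh1a3, Tgm2, Pdgfra, Igfbp4 and Cxcl12, were taken by name from the 24469 genes of the deposited tables, and all 10 were present in both. They were measured by RNA sequencing in hand-picked islets of mice aged 8 weeks. The knockout islets came from 4 Rpl13a-snoless mice, called KO below, a C57BL/6 line without U32a, U33, U34 and U35a, small nucleolar RNAs of the box C/D class that guide RNA methylation and sit inside Rpl13a introns. They were set against islets of 4 wild-type C57BL/6 mice, called WT, and the labels give no other treatment and no sex. The study asked which islet transcripts differ between these genotypes, with 1 mouse per library and no library dropped unless said.

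Mature beta cells couple glucose breakdown to mitochondrial respiration and so to insulin release. A low level of lactate dehydrogenase A (Ldha) and of the plasma membrane lactate and pyruvate carrier MCT1 (Slc16a1) keeps pyruvate in the mitochondria, and stops pyruvate or lactate from outside the cell from triggering insulin release during exercise. A low level of hexokinase 1 (Hk1), which has a high affinity for glucose, keeps insulin release low when glucose is low. Other members serve fatty acyl-CoA and amino acid metabolism, growth factor signalling or the matrix, and Aldh1a3 is known as a marker of beta cells that lose their mature identity.

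In mouse beta cells Slc16a1 is known to be held low in part by the microRNA miR-29, and the sequences below show the match. The mature sequences, credited to RefSeq on GRCm38.p6, have their shared seed (bases 2 to 8) in capitals.
mmu-miR-29a-3p: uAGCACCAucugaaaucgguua
mmu-miR-29b-3p: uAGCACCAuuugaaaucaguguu
mmu-miR-29c-3p: uAGCACCAuuugaaaucgguua
The complement of that seed, TGGTGCT, was searched on the transcript strand in the 3′ UTRs of the longest coding transcripts in GENCODE M21 (GRCm38). It occurred in 3 of the 10 members, 1 time in Slc16a1 and 2 times each in Pdgfra and Igfbp4, and is in capitals in the Slc16a1 and Pdgfra sites below.
Slc16a1 site: tctagtctaccagTGGTGCTcagtg
Pdgfra site 1: cctgagaccacaaTGGTGCTgttga
Pdgfra site 2: tatatgaactgccTGGTGCTcttga
The same 7 letters stood in 12.5% of 21685 3′ UTRs of all lengths and in 26.1% of the 1860 that are 2500 to 3500 bases long. The 3′ UTRs of Slc16a1, Igfbp4 and Pdgfra measured 2743, 2816 and 3104 bases. The match is a description of these letters only. The rows for the miR-29 genes were nearly without reads in both genotypes: Mir29a had 1 count in WT replicate 2 and 0 in the other 7 libraries, Mir29b-1, Mir29b-2 and Mir29c had 0 throughout, where 0 leaves room for up to 3 reads per library. These libraries do not measure mature microRNAs.

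The libraries held 2.12e+07 to 4.11e+07 assigned counts, of which the ribosomal RNA precursor Rn45s took 36.7 to 41.3%. As a check of the genotypes, the 4 targeted snoRNAs together had 0 counts in each KO library and 7, 1, 5 and 2 counts in WT replicates 1 to 4. All 12 beta-cell markers were detected in every library and took 8.65 to 16.3% of counts in KO and 10 to 24% in WT. KO replicate 2 stood apart. Its 6 liver genes took 0.584% of counts, against 0.000262 to 0.000838% in the other 7 libraries, and Alb, the albumin gene, was at 2794 CPM (reads per 1e+06, on TMM-adjusted totals) against 1.65 to 5.53 CPM elsewhere. The 16 acinar markers of the exocrine pancreas took 18.1, 4.36, 23.2 and 14.8% of counts in KO replicates 1 to 4, and 21.6, 1.69, 11.7 and 4.16% in WT replicates 1 to 4. Xist was above 1000 counts in KO replicates 1 and 4 and in WT replicate 4, and at 51 to 158 counts in the other 5 libraries. In whole islets, fewer cells of a type and less RNA per cell cannot be told apart.

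No member passed the false discovery rate (FDR) of 0.05 in edgeR's quasi-likelihood test of KO against WT, where 2 of 13617 genes, or 0.0147%, passed and both were higher in KO. With plain library totals and no composition factor, 0.353% passed, 37 genes higher (0.272%) and 11 lower (0.0808%), and the members' count was still 0. Of the 10 members 9 had enough counts to be fitted, and Pdgfra did not. Log2 fold changes were positive for 7 of the 9 and negative for Hk1 and Aldh1a3, with a median of 0.71, beside a median of 0.01 and 51.3% positive values over all genes fitted. The 12 beta-cell markers lay the other way, with 11 negative values and a median of -0.41, and 0 passed that FDR. Among markers of other cells, positive values were 16 of 16 for acinar (median 0.48), 8 of 11 for mesenchymal (0.37) and 1 of 10 for endothelial cells (-0.22). Of these, 0 passed that FDR as well, and 0 acinar markers had an unadjusted p under 0.05 in edgeR's test in either direction. The acinar markers follow the acinar share of a library, which overlapped between genotypes, so their signs are not separate observations. Of the beta-cell markers 7 were lower and 0 higher in KO at an unadjusted p under 0.05. All KO libraries lay below all WT libraries for 5 of them (Ins2, Pdx1, Nkx6-1, Ucn3 and Glp1r), beside 4.66% of all genes fitted. The part of the beta-cell share in the members' values was not tested. At an unadjusted p under 0.05 there were 5 members higher in KO and 0 lower, where 18.7% of all genes stood under that p, 8.42% higher and 10.3% lower. Without KO replicate 2 edgeR's unadjusted p was 0.0091 for Acot7, 0.0111 for Igfbp4, 0.0309 for Tgm2, 0.0555 for Cxcl12 and 0.0662 for Oat. The share of all genes under 0.05 in that fit is not given here, so these values have no background beside them. Limma-voom, which passed 0.0147% of all genes, and DESeq2, which passed 4.98% (1.95% higher, 3.04% lower), each passed 0 members at that FDR as well. DESeq2 gave no adjusted p for Slc16a1, Aldh1a3 and Igfbp4. The median was 0.51 without KO replicate 2 and 0.82 without WT replicate 1, with 7 of 9 values positive each time. Without KO replicate 2 edgeR's test passed 0.0145% of all genes and 0 members. Without WT replicate 1 it passed 9.46% of all genes (3.39% higher, 6.08% lower) and 2 members, Slc16a1 and Tgm2, both higher in KO. With both libraries left out it passed 9.47% of all genes (4.37% higher, 5.1% lower) and 0 members, with Tgm2 at an adjusted p of 0.0501.

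**Figure D1:**
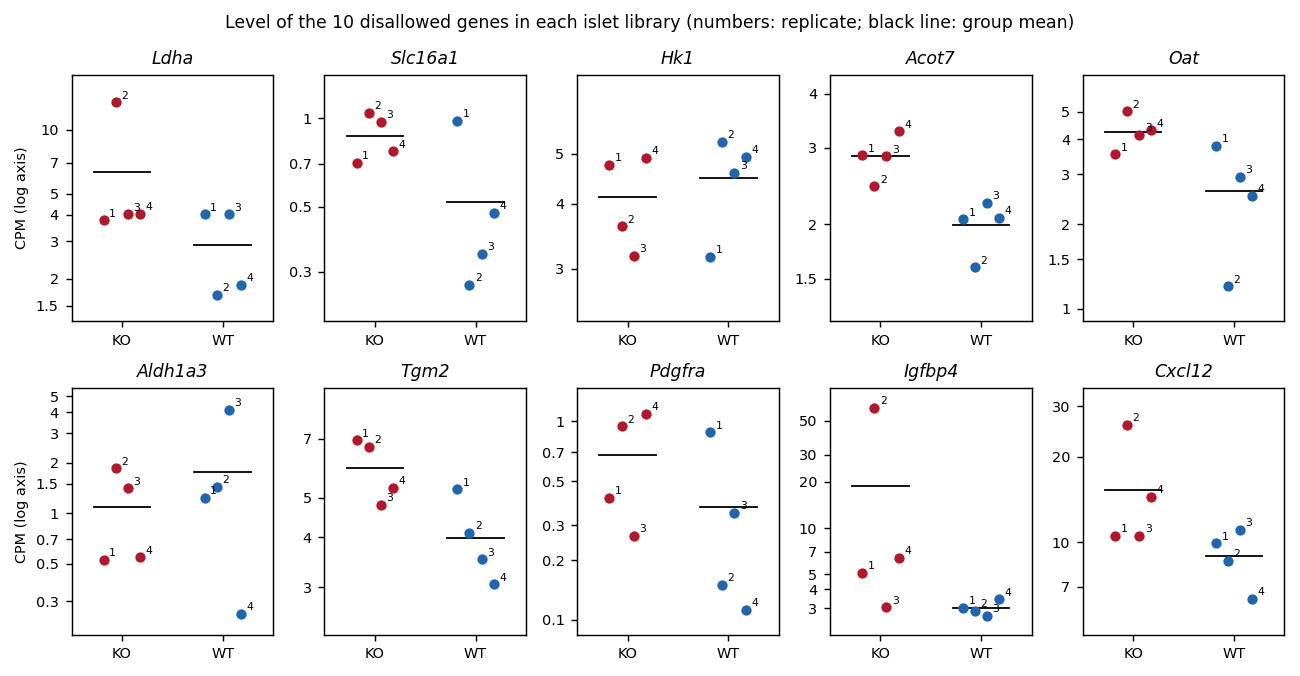
Level of each of the 10 genes in every library in CPM on a log axis, with KO left and WT right, 4 libraries each, replicate numbers beside the points and the group mean as a black line. KO replicate 2 is highest for Ldha, Slc16a1, Oat, Igfbp4 and Cxcl12, and the genotypes do not overlap for Acot7.

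Lactate handling was read from Ldha, which reduces pyruvate to lactate, and Slc16a1. Ldha was at 3.76, 13.4, 4.02 and 4.05 CPM in KO replicates 1 to 4 and at 4.01, 1.69, 4.01 and 1.88 CPM in WT replicates 1 to 4. KO replicate 2 was far above the rest, the other 3 KO libraries were level with WT replicates 1 and 3, and WT replicates 2 and 4 were low. On the log2 scale KO over WT came to 1.14 ± 0.54 for Ldha (edgeR, adjusted p = 0.297; the error here and for all later fold changes is the SE), and 0.46 ± 0.31 without KO replicate 2, the library rich in liver RNA. Its deposited counts were not whole within 0.01 in 6 of 8 libraries, so reads shared with near-identical copies may have been split and its level is uncertain. Ldha lies on chromosome 7, 44 tested genes from Rpl13a, and linkage to the targeted allele was not tested.

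Ldhb, the subunit that favours the return of lactate to pyruvate, was at 2.09 ± 0.0951 CPM in KO and 2.20 ± 0.236 CPM in WT (SD, n = 4 each), a difference smaller than the SD in WT. The ratio of Ldha to Ldhb within a library does not depend on the scaling of libraries. Its log2 value was 0.78, 2.77, 0.92 and 0.93 in KO replicates 1 to 4 and 0.87, -0.49, 1.10 and -0.32 in WT replicates 1 to 4. KO minus WT, the means differed by 1.06 (exact permutation test, two-sided, p = 0.229, or 0.514 adjusted over the 3 ratios computed, where 0.0286 is the smallest p possible). Again KO replicate 2 was the highest library and WT replicates 2 and 4 the lowest.

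Slc16a1, the gene of MCT1 with the miR-29 site printed above, was among the lowest members, with 9 to 32 counts per library. It was at 0.706, 1.04, 0.972 and 0.771 CPM in KO replicates 1 to 4 and at 0.978, 0.271, 0.346 and 0.476 CPM in WT replicates 1 to 4. All 4 KO libraries were above 3 of the WT libraries, and WT replicate 1 lay within the KO range. Its fold change came to 0.76 ± 0.39 in log2 units (edgeR, adjusted p = 0.309) and, without WT replicate 1, 1.24 ± 0.34 (adjusted p = 0.0491). It was 0.66 ± 0.44 without KO replicate 2 (adjusted p = 0.461) and 1.15 ± 0.39 with both left out (adjusted p = 0.0840). WT replicate 1 had the largest acinar share among WT libraries, 21.6%. Adding the acinar share to the model gave 0.64 (adjusted p = 0.439). Of its relatives, the pyruvate carrier gene Slc16a7 (MCT2) was at 5.12, 3.36, 4.99 and 3.18 CPM in KO and 4.50, 1.14, 1.90 and 1.46 CPM in WT, the same split of WT replicate 1 from the other WT libraries. Slc16a3 (MCT4), the lactate exporter of glycolytic cells, had 1 to 7 counts per library and was not fitted.

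Hk1, the hexokinase that stays active at low glucose, was at 4.76, 3.62, 3.18 and 4.92 CPM in KO replicates 1 to 4 and at 3.16, 5.27, 4.60 and 4.93 CPM in WT replicates 1 to 4. The genotypes overlapped over nearly their whole range, with WT replicate 1 and KO replicate 3 lowest and WT replicate 2 highest. For Hk1 the fold change in log2 units was -0.13 ± 0.20 (edgeR, adjusted p = 0.753), and it was negative in each of the 23 alternatives run, from -0.29 to -0.0037. Per kilobase of transcript, Hk1 stood at 0.963 ± 0.199 CPM per kb in KO and 1.05 ± 0.216 in WT (SD, n = 4 each). Hk2, the insulin-regulated hexokinase of muscle and fat, was lower, at 0.156 ± 0.160 CPM per kb in KO and 0.0803 ± 0.0366 in WT.

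**Figure D2:**
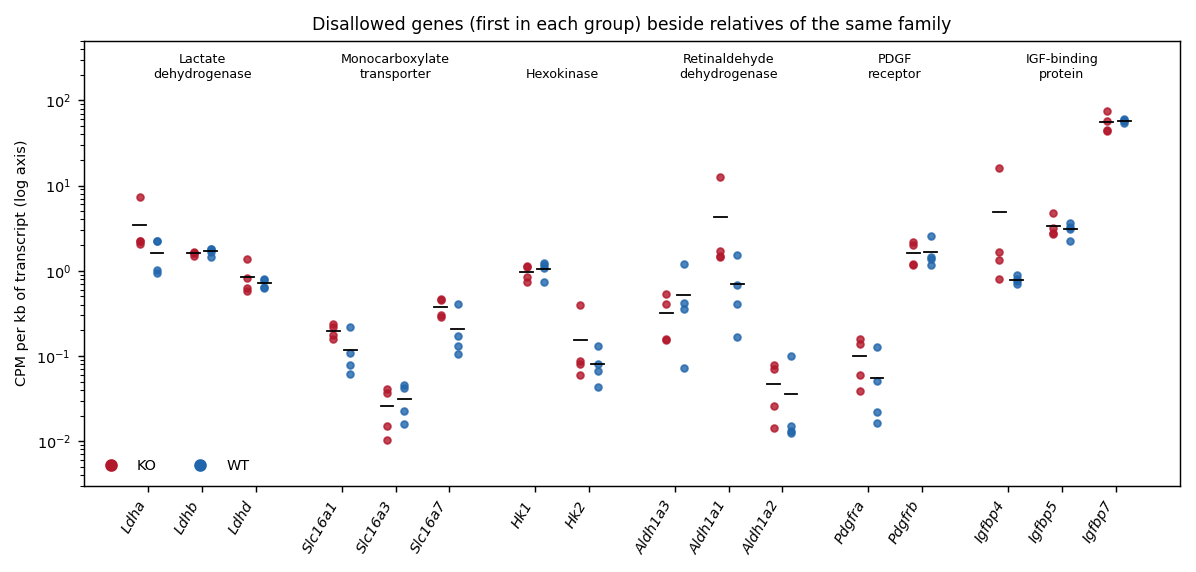
Levels of 6 disallowed genes and their relatives in CPM per kb of the longest coding transcript, on a log axis, with KO left and WT right for each gene, 1 point per library and the mean as a black line. Hk2 has a lower mean than Hk1, and Pdgfra a lower mean than Pdgfrb, in both genotypes.

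Acot7, a cytosolic thioesterase that releases free fatty acid from acyl-CoA, was the only member whose genotypes did not overlap. It was at 2.88, 2.45, 2.87 and 3.28 CPM in KO replicates 1 to 4 and at 2.05, 1.60, 2.25 and 2.07 CPM in WT replicates 1 to 4. All 4 KO libraries were above all 4 WT libraries, a separation that 3.68% of all genes fitted showed with KO above and 4.66% with KO below, 8.34% in all. In log2 units Acot7 differed by 0.53 ± 0.18 (edgeR, adjusted p = 0.186). Leaving out single libraries gave 0.43 to 0.60, and adding the acinar share to the model gave 0.43 (adjusted p = 0.321). Among 6 other thioesterase genes 4 had positive values and Acot11, the thioesterase of brown fat, was at 14.1 ± 0.849 CPM in KO and 18.3 ± 3.24 CPM in WT, a log2 fold change of -0.38 ± 0.13 (adjusted p = 0.176).

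Oat, the mitochondrial ornithine aminotransferase that links ornithine to glutamate and proline, was at 3.53, 5.02, 4.15 and 4.31 CPM in KO replicates 1 to 4 and at 3.78, 1.20, 2.94 and 2.52 CPM in WT replicates 1 to 4. KO replicate 2 was highest and WT replicate 2 lowest, and WT replicate 1 lay within the KO range. Oat had a log2 fold change of 0.71 ± 0.28 (edgeR, adjusted p = 0.228), 0.62 ± 0.30 without KO replicate 2 and 0.93 ± 0.28 without WT replicate 1 (adjusted p = 0.0612). Without WT replicate 2, the lowest library, it was 0.47 (adjusted p = 0.329). In the WT libraries Oat and the acinar share had the same order, but in KO they did not: KO replicate 2 had the highest Oat and the lowest acinar share, and KO replicate 1 the lowest Oat with 18.1% acinar counts. All 16 acinar markers were detected in every library and none was at 0, with 4.36 to 23.2% of counts in KO and 1.69 to 21.6% in WT. With that share as a covariate the value was 0.61 (adjusted p = 0.307). KO replicate 2, which had only 4.36% acinar counts, also held the liver RNA, and the urea cycle gene Otc, which uses the same substrate in liver, had 700 counts there and 0 or 1 in every other library. The part of acinar or liver RNA in the Oat result beyond these values was not tested. Oat is on chromosome 7, but 487 tested genes from Rpl13a.

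**Figure D3:**
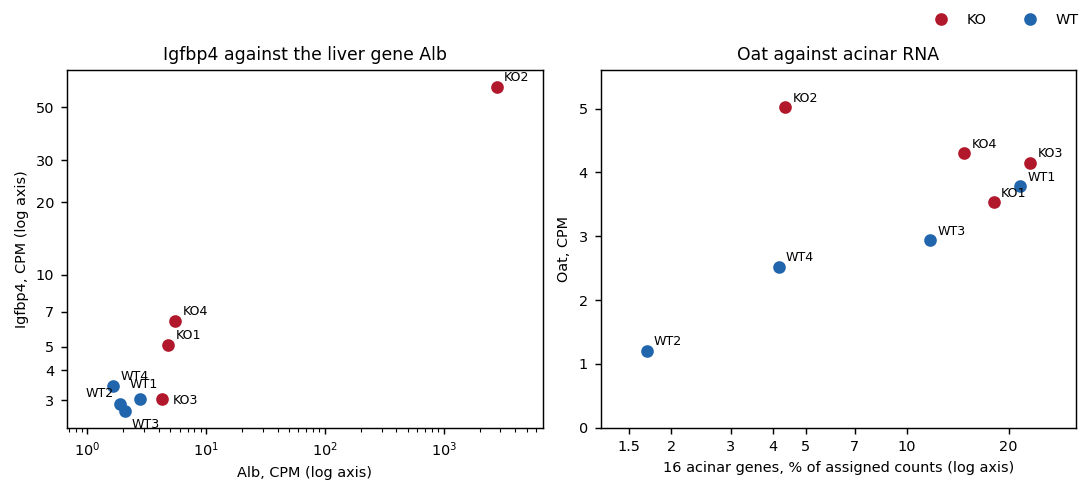
Left, Igfbp4 against the liver gene Alb, both in CPM on log axes; right, Oat in CPM on a linear axis against the percentage of assigned counts on 16 acinar genes on a log axis, with 1 labelled point per library in KO and WT colours. KO replicate 2 is highest in both plots, at 60.8 CPM of Igfbp4 and 5.02 CPM of Oat.

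Aldh1a3, which makes retinoic acid from retinaldehyde, was at 0.529, 1.86, 1.41 and 0.546 CPM in KO replicates 1 to 4 and at 1.24, 1.45, 4.15 and 0.252 CPM in WT replicates 1 to 4. Both the highest and the lowest library were WT, so the KO values lay inside the WT range. Aldh1a3 had a fold change of -0.67 ± 0.78 in log2 units (edgeR, adjusted p = 0.671), and it was 0.17 without WT replicate 3. The libraries with Xist above 1000 counts had the 3 lowest levels, KO replicates 1 and 4 and WT replicate 4, and with Xist as a covariate the value was -0.09. What the Xist groups differ in was not tested, since the labels give no sex. Aldh1a3 lies on chromosome 7, 88 tested genes from Rpl13a. Its paralog Aldh1a1 was at 3.47, 29.4, 4.02 and 3.41 CPM in KO and 3.59, 0.391, 1.59 and 0.952 CPM in WT, and was highest in KO replicate 2. Aldh1a2 had 1 to 7 counts per library.

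Tgm2, the tissue transglutaminase that cross-links proteins, was at 6.94, 6.68, 4.82 and 5.30 CPM in KO replicates 1 to 4 and at 5.25, 4.09, 3.52 and 3.05 CPM in WT replicates 1 to 4. The genotypes overlapped only through KO replicate 3, which lay below WT replicate 1. At 0.57 ± 0.19 in log2 units (edgeR, adjusted p = 0.176), its fold change had the smallest p of the members. Without WT replicate 1 it was 0.72 ± 0.18 (adjusted p = 0.0332), and it was positive in all 23 alternatives, from 0.33 to 0.72. It was 0.51 ± 0.21 without KO replicate 2. Tgm1 and Tgm3, the transglutaminases of skin, had 0 to 21 and 1 to 9 counts per library and were not fitted.

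Pdgfra, the receptor of platelet-derived growth factors on fibroblast-like cells, had the fewest reads. It had 7, 29, 6 and 34 counts in KO replicates 1 to 4 and 27, 5, 10 and 4 counts in WT replicates 1 to 4, or 0.412, 0.946, 0.265 and 1.09 CPM in KO and 0.880, 0.151, 0.346 and 0.112 CPM in WT. KO replicates 2 and 4 and WT replicate 1 were high and the other 5 libraries low. With no filter on low counts KO over WT came to 0.90 ± 0.65 in log2 units (edgeR, adjusted p = 0.543 over 20118 genes). The log2 ratio of Pdgfra to Pdgfrb, the receptor of pericytes, averaged -3.81 ± 0.89 in KO and -4.89 ± 1.57 in WT (SD, n = 4 each). That is a difference of 1.08 (exact permutation test, two-sided, p = 0.343, adjusted p = 0.514). The 11 mesenchymal markers, Pdgfrb among them, were all detected in every library, at 0.0114 to 0.0375% of counts in KO and 0.014 to 0.0264% in WT. Pdgfrb itself was at 8.84 ± 2.91 CPM in KO and 8.94 ± 3.46 CPM in WT.

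Igfbp4, a secreted protein that binds insulin-like growth factors, had the largest fold change of the members, with 1 library far above the others. It was at 5.12, 60.8, 3.05 and 6.43 CPM in KO replicates 1 to 4 and at 3.03, 2.89, 2.70 and 3.45 CPM in WT replicates 1 to 4. KO replicates 1 and 4 lay above all WT libraries, KO replicate 3 within their range, and KO replicate 2 far above everything else. In log2 units the difference was 2.65 ± 1.08 (edgeR, adjusted p = 0.262), and 0.69 ± 0.23 without KO replicate 2 (adjusted p = 0.231). In KO replicate 2 the 6 liver genes were all present with 7208 to 85706 counts each, while elsewhere 4 of the 6 were detected in every library and Serpina1a was at 0 in 6 of the 7. Liver is a known source of Igfbp4, and the IGF-binding protein gene Igfbp2 of liver had 78 counts in KO replicate 2 and 0 or 1 in the others. The part of liver RNA in the Igfbp4 value beyond these measurements was not tested. The paralog Igfbp7, abundant in islet endothelium, was at 66.2 ± 17.3 CPM in KO and 69.3 ± 3.10 CPM in WT.

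Cxcl12, the chemokine that attracts cells bearing the receptor Cxcr4, had the highest CPM of the members in every library but KO replicate 2, where Igfbp4 was higher. It was at 10.5, 25.8, 10.6 and 14.4 CPM in KO replicates 1 to 4 and at 9.95, 8.61, 11.1 and 6.33 CPM in WT replicates 1 to 4. KO replicate 2 was highest and WT replicate 4 lowest, and KO replicates 1 and 3 lay below WT replicate 3. Cxcl12 had a log2 fold change of 0.78 ± 0.32 (edgeR, adjusted p = 0.245), and 0.41 ± 0.19 without KO replicate 2. It was 0.76 with the summed mesenchymal and endothelial markers as a covariate. Those endothelial markers, 10 of 10 detected in every library, took 0.0121 to 0.025% of counts in KO and 0.0137 to 0.0335% in WT. The receptors had log2 fold changes of -0.02 ± 0.24 for Cxcr4 and -0.42 ± 0.25 for the scavenger Ackr3, with edgeR adjusted p-values of 0.976 and 0.360.

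**Figure D4:**
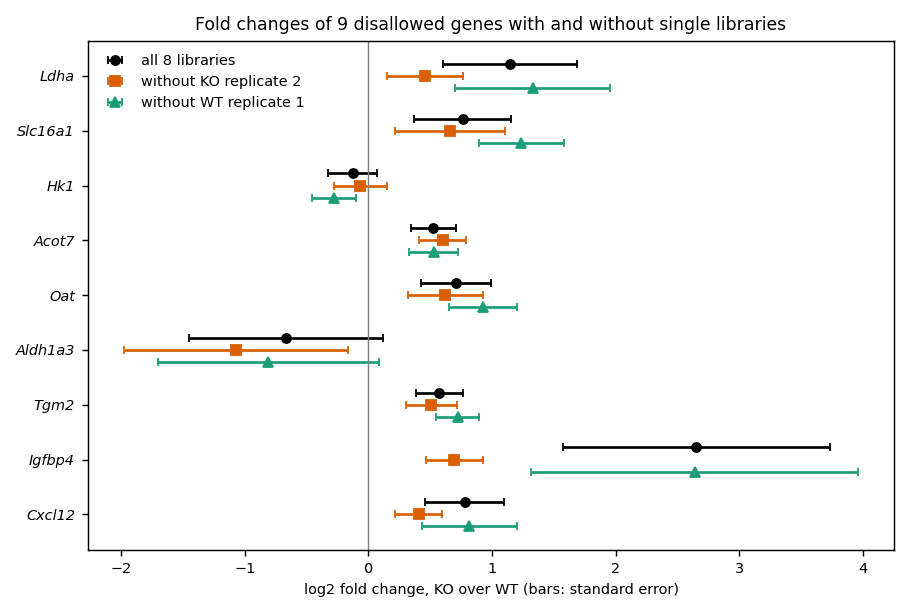
Log2 fold change of KO over WT for the 9 fitted genes, with standard errors as bars, from all 8 libraries, without KO replicate 2 and without WT replicate 1. Leaving out KO replicate 2 takes Igfbp4 to 0.69 and Ldha to 0.46, while Acot7 and Tgm2 stay between 0.51 and 0.72.

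Per kilobase of transcript, the members spanned a wide range in WT islets. Ldha and Cxcl12 stood at 1.60 ± 0.710 and 1.60 ± 0.361 CPM per kb, Acot7 at 1.32 ± 0.185, Oat at 1.21 ± 0.499, Tgm2 at 1.11 ± 0.263, Hk1 at 1.05 ± 0.216 and Igfbp4 at 0.787 ± 0.0830 (SD, n = 4). Aldh1a3 followed at 0.514 ± 0.484, and Slc16a1 at 0.117 ± 0.0720 and Pdgfra at 0.0545 ± 0.0518 were lowest. Neighbours in that order differed by less than the sum of their SDs. For scale, Ins2, the main insulin gene, was at 84065 ± 9205 CPM per kb in KO and 125654 ± 18861 in WT, and the glucose transporter gene Slc2a2 at 34.9 ± 2.02 in KO and 39.6 ± 4.10 in WT. In KO the means of 8 members were higher than in WT, Ldha at 3.48 ± 2.62 and Igfbp4 at 4.92 ± 7.31 CPM per kb with SDs set mostly by KO replicate 2.

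The spread among replicates differed widely between members. In log2 CPM, the SD over 4 libraries was 0.17 in KO and 0.21 in WT for Acot7, the smallest of any member in KO, and 0.25 in KO and 0.33 in WT for Tgm2. It was 0.87 in KO and 1.53 in WT for Aldh1a3 and 1.90 in KO and 0.15 in WT for Igfbp4. Over the 8 libraries, 33 of the 45 pairs of members had a positive correlation of log2 CPM. The negative pairs all held Hk1 or Aldh1a3, the members with negative fold changes. The 28 pairs without these were therefore positive by selection, from 0.256 to 0.930, and they remained positive without KO replicate 2. The 8 libraries hold both genotypes, so the correlations also carry any difference between KO and WT. These points share library composition and depth, so the values describe the libraries.

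The genes whose level followed each member most closely over the 8 libraries were found by the highest Pearson correlation of log2 CPM among all genes fitted. They were Clcn3 (r = 0.99) and Tm2d3 (0.98) for Slc16a1, Pgap1 (0.98) and Clec2d (0.98) for Ldha, H2-Aa (0.98) and Gnb5 (0.98) for Hk1, and Timm17a (0.97) and Akr1b3 (0.95) for Acot7. Oat was followed by Zfp655 (0.98) and Nip7 (0.98), Tgm2 by Itga1 (0.96) and Klhdc7a (0.96), Pdgfra by Mrpl16 (0.96) and Cmpk1 (0.96), and Aldh1a3 by Mfi2 (0.95) and Hist1h2bl (0.91). Slco2b1 (0.99), a transporter gene known from liver, followed Igfbp4, with r = 0.84 without KO replicate 2. Acadm (0.96) followed Cxcl12, with 0.88 without that library. These are among the highest of the values over 13617 genes for each member, over libraries that share composition and depth.

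A further list held 22 genes known as disallowed in beta cells. Of the 21 fitted, 18 were higher on average in KO by log2 fold change (median 0.62), and 0 passed an FDR of 0.05 in edgeR's quasi-likelihood test, with 9 higher and 1 lower at an unadjusted p under 0.05, beside 8.42% higher and 10.3% lower over all genes. The genotypes did not overlap for 3, all with KO above, beside 3.68% of all genes with KO above and 8.34% in all. The smallest p-values belonged to Nfib, Rest and Ltbp3. Nfib, a nuclear factor I gene, was at 30.8, 30.5, 28.4 and 29.9 CPM in KO and 25.7, 21.6, 16.8 and 15.2 CPM in WT (log2 fold change 0.59 ± 0.15, adjusted p = 0.142). Rest, the repressor of neuronal genes that beta cells switch off, was at 5.06, 5.12, 4.99 and 4.37 CPM in KO and 4.04, 2.83, 3.01 and 3.11 CPM in WT (0.59 ± 0.15, adjusted p = 0.144). For both genes all 4 KO libraries lay above all 4 WT libraries. Ltbp3, a binding protein of latent TGF-beta, had -0.43 ± 0.14 (adjusted p = 0.183). Without KO replicate 2 the median was 0.55, with 18 of 21 positive. Without WT replicate 1, where 9.46% of all genes passed, 7 of 22 passed, 6 higher and 1 lower, among them Nfib at 0.73 ± 0.12 (adjusted p = 0.0108) and Rest at 0.69 ± 0.14 (adjusted p = 0.0182). With KO replicate 2 left out as well, a choice made after seeing the data, 9 of 21 passed higher and 1 lower. In that fit 9.47% of all genes passed. The antioxidant genes Cat and Mgst1, also strong in liver, were at 175 and 65.1 CPM in KO replicate 2 against 5.84 to 15.0 and 0.553 to 1.54 CPM in the other libraries, and were chosen after their values were seen.

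Genes of progenitor or dedifferentiated beta cells had a median of 0.18 on the log2 scale, with 8 of 9 fitted genes positive and 0 past an FDR of 0.05 or at an unadjusted p under 0.05 in edgeR's test. The median was 0.28 with 6 of 9 positive without KO replicate 2, and 0.13 with 7 of 9 positive without WT replicate 1. Fev, a transcription factor of endocrine progenitors, had 0.49 ± 0.23 (adjusted p = 0.277), and Vim, the intermediate filament gene of mesenchymal cells, had 0.49 ± 0.35 (adjusted p = 0.456). Neurog3, which starts endocrine differentiation, had -0.35 ± 0.26 (adjusted p = 0.476).

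Of 59 genes that share a substrate, receptor or family with a member, 45 were fitted, 29 with positive and 16 with negative log2 fold changes and a median of 0.20. None passed an FDR of 0.05 in edgeR's test of 8 libraries, with 6 higher and 2 lower at an unadjusted p under 0.05. Over all genes 18.7% stood under that p, 8.42% higher and 10.3% lower, so these 8 of 45 are near the background. Without WT replicate 1 there were 4 that passed, where 9.46% of all genes did, so the count in that fit is near the background. Mpc1 and Bsg are named because of these values. Slc16a7 was higher in KO (1.45 ± 0.25, adjusted p = 0.0124), as was Mpc1, a subunit of the mitochondrial pyruvate carrier (0.96 ± 0.17, adjusted p = 0.0125). Lower in KO were Bsg, the chaperone that brings MCT1 to the cell surface (-0.74 ± 0.12, adjusted p = 0.00968), and Acot11 (-0.47 ± 0.12, adjusted p = 0.0388). With all 8 libraries the adjusted p-values of Slc16a7, Mpc1, Bsg and Acot11 were 0.144 to 0.285. With WT replicate 1 and KO replicate 2 both left out, where 9.47% of all genes passed, these genes passed again. Aldh1a1, Arg2 and Odc1, higher in KO, and Pcx, lower in KO, then passed as well. Bsg was at 97.6, 86.5, 75.4 and 71.1 CPM in KO replicates 1 to 4 and at 89.3, 127, 137 and 146 CPM in WT replicates 1 to 4, where WT replicate 1 again lay within the KO range.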

How the data were processed

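Per the submitters' processing notes, STAR 2.4.1, Partek and build mm9 were used. Their roles are not stated, nor is an annotation or strand setting. Per the labels' protocols, total RNA of 4 mice per genotype was made into SeqPlex libraries. The deposited table of estimated counts had 9.98 to 12.4% of values not whole within 0.01, and these were rounded. The second deposited table holds RPM made by the authors, each value being the count over a constant of 37.3 to 67.5 (reads in units of 1e+06). Testing used edgeR 4.0.16 under R 4.3.3 (TMM, filterByExpr, robust quasi-likelihood F-test, Benjamini-Hochberg over 13617 genes), after a check on simulated data. TMM factors ran from 0.701 to 1.34. Standard errors come from the F statistic. Log2 CPM used a prior count of 2 and log2 ratios added 0.5 counts. Alternatives used DESeq2 1.42.0 and limma 3.58.1, other scalings, filters and covariates, the replicate block and each library left out. Transcript lengths and 3′ UTRs came from GENCODE M21 and gene order from RefSeq, both GRCm38, so no coordinates are given. The members, lists and tests were chosen with earlier results of these data known. The rule for naming took all 10 members, family relatives, the 3 of smallest p in each further list and the 2 genes most like each member. Some results that this rule and the planned ratios call for are not reported here. Standard errors and p-values rest on the spread between these 8 mice, and SDs on the 4 libraries of a genotype. The limit of up to 3 reads for a count of 0 covers counting error only.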

Additional observations from a re-analysis of the deposited data

Results flagged for a closer look

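In 3 of 26 groups of 4 libraries examined, 1 library lay far from the other 3. For separate groups of normally distributed values that happens by chance in about 1 group in 20. The groups here share libraries, Ldha enters both as CPM and in its ratio, and CPM values were not logged. The count is therefore not set against that rate. In all 3 groups the library was KO replicate 2, the library with liver RNA. It was at 13.4 CPM of Ldha, against 3.76 to 4.05 CPM in the other KO libraries. It was at 60.8 CPM of Igfbp4, against 3.05 to 6.43 CPM in the other KO libraries. The log2 ratio of Ldha to Ldhb was 2.77 there, against 0.78 to 0.93 in the other KO libraries.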

How the results depend on the processing

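The count of genes past an FDR of 0.05, 2 in the test reported, was 48 with no composition factor (37 higher, 11 lower), 517 with DESeq2, 51 and 58 with limma-trend on the authors' values plus 1 and plus 0.1, and 5 with the mesenchymal and endothelial share as a covariate. Leaving out single libraries gave 2 to 1313, with 1313 without WT replicate 1 and 5 without KO replicate 4, and was 1296 without WT replicate 1 and KO replicate 2 together, a choice made after seeing the data. In those same fits 0 to 2 members passed, and their median log2 fold change was 0.51 to 0.82. That median was 0.33 with limma-trend on values plus 1, a scale that understates changes of low genes. The all-gene median was -0.11 with no composition factor, against 0.01. Aldh1a3 turned to 0.17 without WT replicate 3, and spanned -1.07 to 0.17 over the fits that each omit 1 library. The log2 ratio difference of Ldha to Ldhb spanned 0.59 to 1.33 in such fits and that of Pdgfra to Pdgfrb from 0.58 to 1.69. The causes were not tested. Pdgfra was fitted only with no filter or without single libraries.

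Same-numbered libraries of the 2 genotypes deviated from their genotype means with correlations of 0.0383, 0.21, 0.156 and 0.147. Libraries with different numbers were not compared, so these values do not decide whether the numbers pair the samples. The main test did not pair them. With the replicate block 2 genes and 0 members passed, the members' median was 0.71, and the differences of both ratios were the same, each with an exact p of 0.5, where 0.125 is the smallest possible.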
